A study of Homo sapiens with 12 samples.

Results

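A set of 10 keratin genes of squamous and simple epithelium were followed in SCC15 and SCC25 cells, a pair of HNSCC cell lines, after treatment with squamocin. The 10 genes were chosen by name from the keratin family: the basal pair KRT5 and KRT14, the activation keratins KRT6A, KRT6B, KRT16 and KRT17, the mucosal pair KRT4 and KRT13, and the simple pair KRT8 and KRT18. They are 10 of the 34227 genes found in either table. SCC15 and SCC25 are lines of oral squamous carcinoma that the labels give as wild type (WT). The treatment is written ACGs in the labels (annonaceous acetogenins) and was squamocin, a compound of that class, at 10 µg/mL by the study's methods. Each of the 4 groups (squamocin or DMSO, the solvent, in each cell line) holds 3 RNA-seq libraries made after 24 h. The labels do not say whether these came from separate cultures, so the p-values measure the spread between these libraries, which may be technical, and each cell line stands for itself alone.

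Keratins are the intermediate filament proteins of epithelial cells. A filament needs a type II keratin (KRT4, KRT5, KRT6A, KRT6B, KRT8) and a type I keratin (KRT13, KRT14, KRT16, KRT17, KRT18), and most cells make them in set pairs. KRT5 and KRT14 build the filaments of the basal layer of stratified epithelium, KRT4 and KRT13 those of the upper layers of oral mucosa, and KRT8 and KRT18 those of single-layered epithelium, which carcinomas often also make. KRT6A, KRT6B, KRT16 and KRT17 are induced when keratinocytes are wounded or stressed.

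The values are normalized counts, which are reads per gene divided by 1 size factor per library that the authors set within each cell line. The libraries held 16665563 to 22748845 reads on genes. The third squamocin library of SCC15 stood apart from its replicates, with a chi-square per degree of freedom of 71.6 and 63.5 against them, while the other 10 pairs of replicates lay between 1.72 and 11.0. The calls and fold changes of the 10 keratins in SCC15 are therefore also given without it, as are those of some other keratins. The gene lists in SCC15 were counted with it included. Scaling the libraries to equal totals moved the median log2 fold change of all genes from 0.012 to -0.50 in SCC15 and from -0.015 to -0.23 in SCC25, so that a fold change close to these values depends on the scaling. In bulk RNA, fewer cells of a type and less RNA per cell cannot be told apart.

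The labelled squamous cell type was checked against 8 markers. In SCC25, all 8 were above the filter of a mean of 10 normalized counts, and 4 were higher and 3 lower with squamocin. In SCC15, 7 were above it, and 3 were higher and 0 lower. Of all genes tested, 38.3% were called higher and 38.5% lower in SCC25, and 30.9% and 30.0% in SCC15. The desmosomal cadherin DSG3 had 5 reads in the DMSO libraries of SCC15 together and 3 with squamocin, TP63, which encodes the master regulator of stratified epithelium, had 62 and 27, and EPCAM had 41 and 25. PERP, another desmosomal gene, had 28391 reads with DMSO in the same cell line. TP63 alone had 15705 reads in the DMSO libraries of SCC25. Other markers of this squamous list were well detected in SCC15 with DMSO, with 9280 reads of DSP, 8681 of SFN, 1878 of CDH1 and 1457 of PKP1. The SCC15 libraries thus held epithelial transcripts, but the squamous markers were split. TP63, DSG3 and the basal keratin KRT5, typical of stratified squamous epithelium, were close to 0, against the labelled cell type. The squamous keratins KRT14, KRT16 and KRT17 were expressed there, with 2720, 10283 and 402398 reads in the DMSO libraries. The 20 markers of fibroblasts, endothelial cells, leukocytes and melanocytes summed to far less than the keratins in every library. The few endothelial markers tested were called lower with squamocin (the 1 in SCC15 and all 3 in SCC25), where 30.0% and 38.5% of all genes were. Their summed level in SCC15 was 158 to 178 normalized counts in the DMSO libraries and 66.1 to 77.1 after squamocin, and in SCC25 it was 233 to 296 and then 19.8 to 37.7. Of the fibroblast markers, 2 of the 4 tested were lower in SCC15 and 1 of the 3 tested was higher in SCC25. Of the leukocyte markers (1 tested in SCC15 and 2 in SCC25), 0 were called in either cell line. Of the melanocyte markers, 0 were called in SCC15 (1 tested) and 2 were lower in SCC25 (2 tested). These lists moved with treatment, and their part in the results was not tested.

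KRT6A and KRT6B are near-identical copies that lie in the keratin cluster of chromosome 12, so it matters whether reads can tell them apart. Their coding sequences of 1692 bases differ at 42 positions (97.5% identity, GENCODE release 44). The 90 bases with the most differences, coding bases 656 to 745, are shown as the part of the genes that best separates them, with the 10 differing bases in capitals, on the minus strand of GRCh38 (chr12:52491532-52491621 for KRT6A and chr12:52450416-52450505 for KRT6B).
KRT6A: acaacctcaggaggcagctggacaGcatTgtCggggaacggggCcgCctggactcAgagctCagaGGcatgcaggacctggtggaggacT
KRT6B: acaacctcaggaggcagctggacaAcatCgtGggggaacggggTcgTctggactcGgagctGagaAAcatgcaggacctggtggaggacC
Of all 100-base windows of its transcript, KRT6A shares 18.2% with another gene and KRT6B 24.4%, in both cases mostly with KRT6C, a further copy. KRT6C itself had at most 11.5 normalized counts in any library. At windows of 150 bases these shares are 9.26% and 12.7%. Among the type I keratins, KRT14 and KRT16 are 86.7% identical over their aligned coding bases and KRT14 and KRT17 85.2%, and at 100 bases KRT16 shares 7.12% of its windows and KRT17 0.353%. How the counting treated reads that fit several genes is not given in the sources used here, so the values of the KRT6 copies carry that uncertainty.

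With DMSO alone, the cell lines carried different sets of keratins. Levels are compared between genes as reads per kb of the canonical transcript, scaled to the reads on genes of the library (RPKM, computed here from the recovered reads). In the DMSO libraries of SCC15, KRT17 stood at 4774 ± 124 RPKM (SD, n = 3) and was the highest of 16018 protein-coding genes by this measure. KRT8 followed at 812 ± 6.58, KRT18 at 258 ± 11.1, KRT16 at 112 ± 0.775, KRT14 at 29.9 ± 0.374 and KRT6A at 3.75 ± 0.121. None of these neighbours in the order overlapped between libraries. KRT5, KRT6B and KRT4 lay below 0.4 RPKM in every DMSO library, and KRT13 was not analysed in SCC15 here.

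In the DMSO libraries of SCC25, no single one of the 10 keratins dominated, and KRT15, a keratin outside the 10, stood above them all at 340 ± 2.99 RPKM. Among the 10, KRT8 had 288 ± 4.14 RPKM, KRT18 240 ± 4.91, KRT17 219 ± 6.92 and KRT5 138 ± 1.87. The order at the top, with KRT15 included, depends on the length used. The summed length of all exons of a gene was a measure chosen after the data had been seen. By it, KRT18 ranked 1, KRT17 2 and KRT8 3 among the 10, and KRT15 (97.6) lay below KRT18 and KRT17 (both 111). KRT14, the partner of KRT5, had only 12.4 ± 0.804 RPKM, and KRT16, with 11.9 ± 1.08, overlapped it. KRT6B (2.96 ± 0.403), KRT6A (2.32 ± 0.314) and KRT13 (2.18 ± 0.171) lay close together, with KRT6A overlapping both of its neighbours in this order. KRT4 gave 1 read over the 3 libraries.

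**Figure D1:**
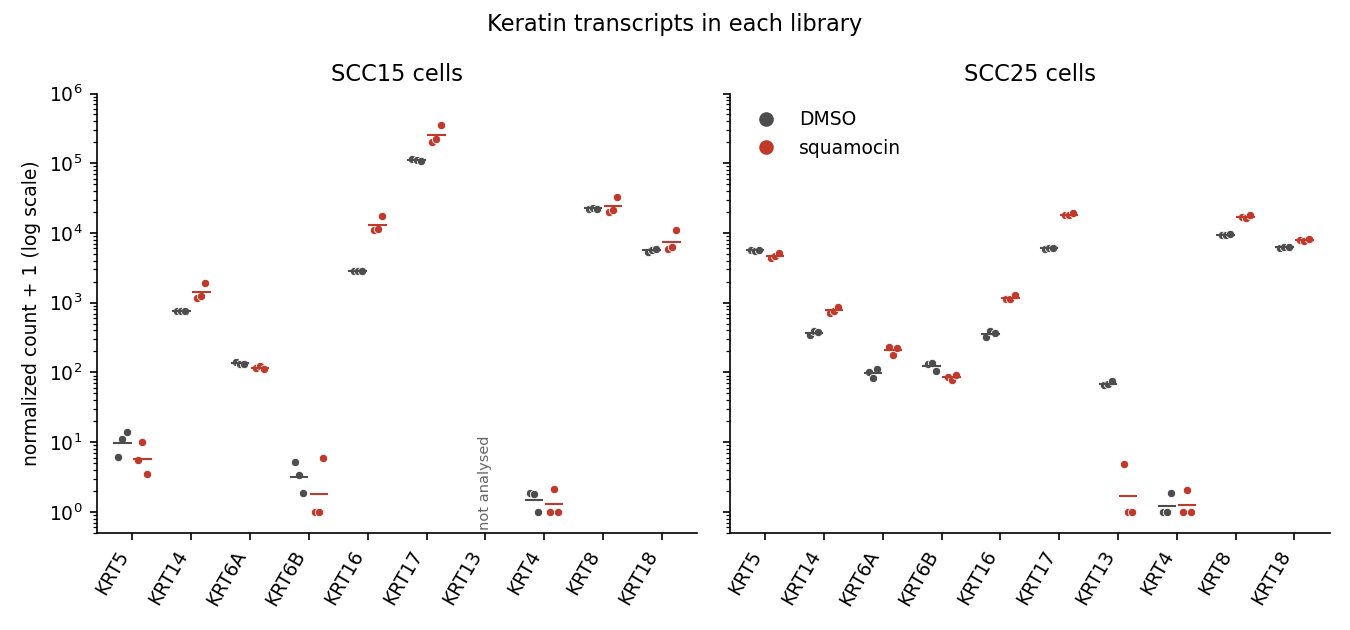
Normalized count plus 1 of the 10 keratins on a log scale, with 1 point per library and a bar at the mean of the log values, for DMSO (grey) and squamocin (red). In SCC15 the KRT17 points lie at 109182 or above in every library, while KRT5 lies at 13.1 or below. In SCC25, KRT13 falls from 64.5 to 74.4 with DMSO to at most 3.81 with squamocin. KRT13 was not analysed in SCC15.

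KRT14, KRT16 and KRT17 were higher with squamocin in SCC15, and no keratin there was called lower. Of the 9 keratins analysed in SCC15, 6 passed the filter of a mean of 10 normalized counts, 3 were higher with squamocin (adjusted p under 0.05), 0 were lower and 3 did not pass the test. Over all 15902 genes tested, 30.9% were called higher and 30.0% lower (61.0% in either direction). At equal library totals those shares were 14.6% and 51.0%. The median log2 fold change was 0.64 over the 6 keratins and 0.012 over all genes. The count of 0 lower is from limma, in which 0 were also lower at an unadjusted p under 0.05. edgeR and DESeq2 called 0 lower as well. At equal library totals, 3 keratins were higher and 2 lower (KRT6A and KRT8), and without the third squamocin library 4 were higher and 1 lower (KRT8). With a log2 fold change beyond 1 required too, 2 keratins were higher and 0 lower, where 12.6% and 14.6% of all genes were called. The 2 became 1 (KRT16) at equal library totals, and likewise without the third squamocin library.

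In SCC25 the keratins moved both ways. Of the 10 keratins, 9 passed the filter, 6 were higher (KRT14, KRT6A, KRT16, KRT17, KRT8 and KRT18) and 3 were lower (KRT5, KRT6B and KRT13). Over all 16539 genes tested, 38.3% were called higher and 38.5% lower (76.8% in either direction). At equal library totals those shares were 30.3% and 47.6%. The median log2 fold change was 0.86 over the 9 keratins and -0.015 over all genes. With a log2 fold change beyond 1 required too, 4 keratins were higher and 1 lower, where 13.9% and 17.0% of all genes were called. The 3 keratins called higher in SCC15 were also called higher in SCC25, and 22.1% of the 14454 genes with a test in each line were called higher in both.

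The basal pair split in SCC25. KRT5 (ENSG00000186081, minus strand of chromosome 12 at 52514575 to 52520687), the type II keratin of the basal layer, had 5656, 5541 and 5684 normalized counts with DMSO and 4362, 4635 and 5247 with squamocin. All 3 squamocin libraries were lower, by 0.25 ± 0.058 on the log2 scale (SE; log2 fold change -0.25, adjusted p = 0.00171). KRT14 (ENSG00000186847, minus strand of chromosome 17 at 41582279 to 41586921), its type I partner, had 345, 387 and 383 with DMSO and 707, 773 and 857 with squamocin. It rose in all 3 libraries, by 1.06 ± 0.082 (adjusted p = 1.05e-07).

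In SCC15, only the type I gene of the basal pair was measurable. KRT5 had 34 reads in the 3 DMSO libraries together and 14 in the 3 squamocin libraries, with groups that overlapped, and was below the filter. KRT14 had 752, 757 and 768 normalized counts with DMSO and 1175, 1233 and 1912 with squamocin. The rise was 0.89 ± 0.18 (adjusted p = 0.00409), and 0.66 ± 0.057 without the third squamocin library (adjusted p = 1.74e-09).

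KRT16 rose more than any other member in both cell lines. KRT16 (ENSG00000186832, chromosome 17, 41609778 to 41615899, minus strand), a keratin of activated and hyperproliferative keratinocytes, had 2895, 2862 and 2855 normalized counts in SCC15 with DMSO and 11021, 11324 and 17612 with squamocin, a 4.64-fold higher mean. The log2 fold change was 2.18 ± 0.18 (adjusted p = 8.01e-05), and 1.96 ± 0.040 without the third squamocin library. In SCC25 it had 326, 389 and 363 with DMSO and 1145, 1146 and 1273 with squamocin, a log2 fold change of 1.72 ± 0.077 (adjusted p = 6.09e-10). The groups lay far apart in both cell lines.

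KRT17 (ENSG00000128422, chromosome 17, 41619441 to 41624842, minus strand) sits next to KRT16 and is likewise induced by stress and injury. In SCC15 it had 115353, 112359 and 109182 normalized counts with DMSO and 203624, 222988 and 354162 with squamocin. The log2 fold change was 1.17 ± 0.24 (adjusted p = 0.00460), and 0.92 ± 0.045 without the third squamocin library (adjusted p = 2.24e-13). KRT17 alone took 0.724% ± 0.0189 of all reads on genes with DMSO in SCC15 and 1.17% ± 0.237 with squamocin. In SCC25 it had 5859, 6176 and 6158 with DMSO and 17851, 17965 and 19292 with squamocin, a 3.03-fold higher mean with a narrow spread (log2 fold change 1.60 ± 0.042, adjusted p = 6.07e-12).

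KRT6A and KRT6B are the type II partners of KRT16 and KRT17. In SCC15, where both type I genes rose, neither copy was called higher. There, KRT6A (ENSG00000205420, chromosome 12, 52487174 to 52493257, minus strand) had 139, 131 and 132 normalized counts with DMSO and 114, 122 and 112 with squamocin. These groups did not overlap, but the log2 fold change of -0.21 ± 0.12 did not pass the test (adjusted p = 0.160). Without the third squamocin library it was -0.19 ± 0.13 (adjusted p = 0.208). Of all genes tested in SCC15, 70.6% had groups that did not overlap. At equal library totals the KRT6A value was -0.70 (adjusted p = 0.00351), which is -0.21 relative to the median of all genes. KRT6B (ENSG00000185479, chromosome 12, 52446651 to 52452126, minus strand) had 9 reads with DMSO and 4 with squamocin and was not tested.

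In SCC25 the copies moved in opposite directions. KRT6A had 99.9, 83.7 and 110 normalized counts with DMSO and 231, 175 and 224 with squamocin, a rise of 1.09 ± 0.15 (adjusted p = 1.75e-05). KRT6B had 131, 138 and 105 with DMSO and 85.2, 78.0 and 92.1 with squamocin, a log2 fold change of -0.54 ± 0.15 (adjusted p = 0.00492). Neither pair of groups overlapped, in a cell line where 79.0% of all genes tested did not.

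The mucosal pair was at a low level or absent wherever it was analysed. KRT13 (ENSG00000171401, chromosome 17, 41500981 to 41505705, minus strand), which with KRT4 marks the upper layers of oral mucosa, had 80, 74 and 84 reads in the DMSO libraries of SCC25 and 3, 0 and 0 with squamocin. The pooled level was 60.4 times higher with DMSO, with an exact 95% counting interval of 20.4 to 295, which covers counting error only. The call as lower (adjusted p = 2.09e-06) does not depend on that ratio, whose size rests on 3 reads. KRT4 (ENSG00000170477, chromosome 12, 52806549 to 52814551, minus strand) had 1 read in each group of SCC25, and in SCC15 it had 2 reads with DMSO and 1 after squamocin, so that no difference was detectable at this depth.

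The simple pair rose in SCC25. KRT8 (ENSG00000170421, chromosome 12, 52897187 to 52949954, minus strand), the type II keratin of single-layered epithelium, had 9388, 9295 and 9539 normalized counts with DMSO and 16773, 16514 and 18046 with squamocin, a rise of 0.86 ± 0.041 (adjusted p = 1.12e-09). KRT18 (ENSG00000111057, chromosome 12, 52948871 to 52952901, plus strand), its type I partner, had 6101, 6212 and 6325 with DMSO and 7855, 7585 and 8112 with squamocin. Its rise was smaller, 0.34 ± 0.039 (adjusted p = 5.25e-06), and stayed past the threshold at equal library totals (0.13, adjusted p = 0.0126).

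In SCC15 the simple pair gave no call, and the sign of its values depended on 1 library and on the scaling. KRT8 had 22342, 22706 and 22306 normalized counts with DMSO and 19863, 21439 and 33103 with squamocin, so that 2 of the squamocin libraries were below all DMSO libraries and the third above them. The log2 fold change was 0.11 ± 0.19 (adjusted p = 0.657), -0.12 ± 0.040 without the third squamocin library (adjusted p = 0.00998) and -0.39 at equal library totals (adjusted p = 0.0318). KRT18 had 5381, 5778 and 5816 with DMSO and 5912, 6374 and 11030 with squamocin. Its log2 fold change was 0.40 ± 0.22 (adjusted p = 0.155), 0.12 ± 0.046 without that library (adjusted p = 0.0242) and -0.098 at equal library totals (adjusted p = 0.620). Relative to the median of all genes at equal totals, KRT8 stood at 0.10 and KRT18 at 0.40. The deposited spans of KRT8 and KRT18, on opposite strands, overlap by 1084 bases (chr12:52948871-52949954), and whether the counting used strand is not given in the sources used here.

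**Figure D2:**
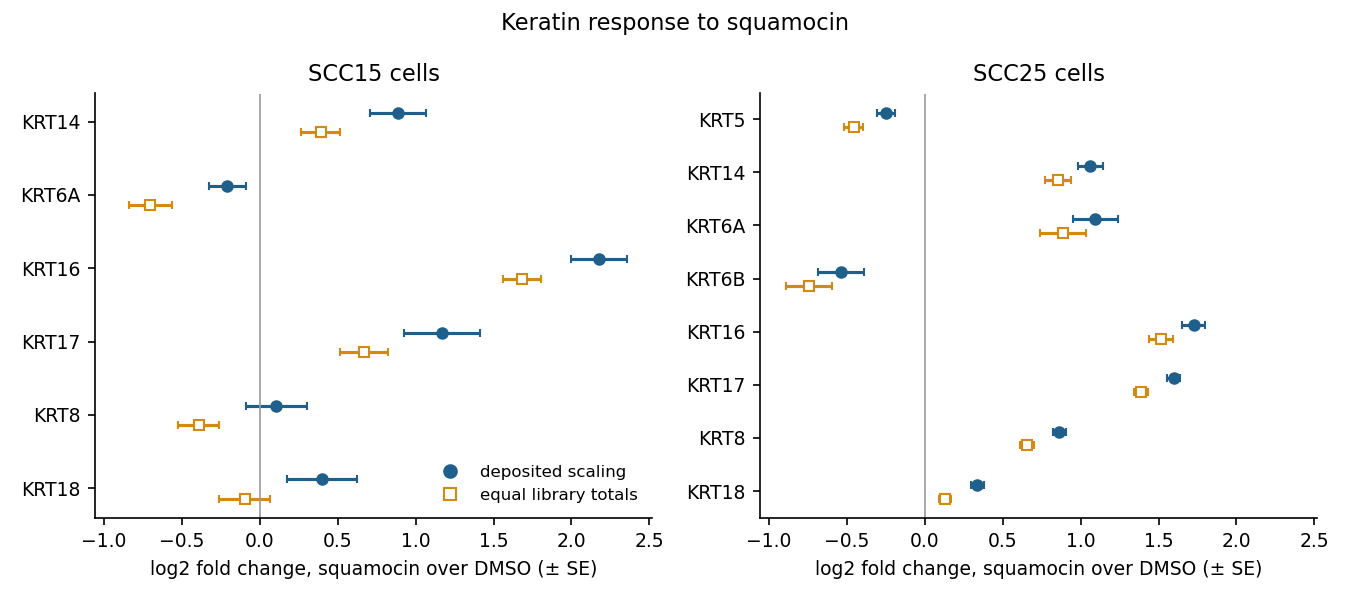
Log2 fold change (squamocin over DMSO) of each tested keratin with its standard error, on the deposited scaling (blue circles) and at equal library totals (open orange squares), with 3 libraries per group. KRT13 is left out because 2 of its 3 squamocin libraries hold 0 reads. KRT16 is highest in both cell lines, and in SCC15 the KRT8 and KRT18 values change sign between the scalings (0.11 to -0.39 and 0.40 to -0.098).

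The response differed between the cell lines for KRT6A and KRT8. Of the 6 keratins tested in both, 2 were lower in SCC15 than in SCC25 and 0 higher, where 26.0% and 26.1% of the 14454 genes were called (52.2% in either direction). The contrast for KRT6A was -1.30 ± 0.20 on the log2 scale (adjusted p = 1.30e-04) and for KRT8 -0.76 ± 0.21 (adjusted p = 0.00815). KRT16 (0.45 ± 0.20, adjusted p = 0.0771), KRT17 (-0.43 ± 0.23, adjusted p = 0.136), KRT14 (-0.18 ± 0.21, adjusted p = 0.508) and KRT18 (0.063 ± 0.24, adjusted p = 0.844) did not pass. The count of 0 higher is from limma. One keratin, KRT16, was higher at an unadjusted p under 0.05, DESeq2 called 1 and edgeR 0. With any 1 of the SCC15 squamocin libraries left out, KRT16 was called higher (0.24 to 0.57). Without the third squamocin library of SCC15, whose spread enters every one of these tests, 5 were called lower and 1 higher, with KRT14 at -0.40 and KRT17 at -0.67 among the lower ones.

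Ratios of keratins within a library do not depend on how libraries are scaled. All 9 ratios computed separated squamocin from DMSO with no overlap. Of all single genes tested, 70.6% in SCC15 and 79.0% in SCC25 also had groups that did not overlap. Each ratio had the smallest p that an exact two-sided permutation test of 3 against 3 can give, 0.1 (0.1 after adjustment over the 9). None could therefore reach the threshold. In SCC25, KRT5 to KRT14 was 16.4, 14.3 and 14.8 with DMSO and 6.17, 5.99 and 6.12 with squamocin. The stratified and simple type II genes also moved apart, with KRT5 to KRT8 at 0.598 ± 0.00373 with DMSO and 0.277 ± 0.0156 with squamocin. For the simple pair, KRT8 to KRT18 went from 1.51 ± 0.0220 to 2.18 ± 0.0446.

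The same ratio went the other way in SCC15. There KRT8 to KRT18 was 4.15, 3.93 and 3.83 with DMSO and 3.36, 3.36 and 3.00 with squamocin. KRT6A to KRT16 fell in both cell lines, from 0.0470 ± 0.00118 to 0.00922 ± 0.00244 in SCC15 and from 0.277 ± 0.0520 to 0.178 ± 0.0248 in SCC25. KRT6B to KRT17 fell in SCC25 from 0.0208 ± 0.00303 to 0.00468 ± 0.000248. KRT14 to KRT18 was higher with squamocin in both, at 0.134 ± 0.00478 and 0.189 ± 0.0135 in SCC15 and at 0.0600 ± 0.00294 and 0.0993 ± 0.00818 in SCC25. These ratios are of normalized counts plus 1 and not of levels per length.

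**Figure D3:**
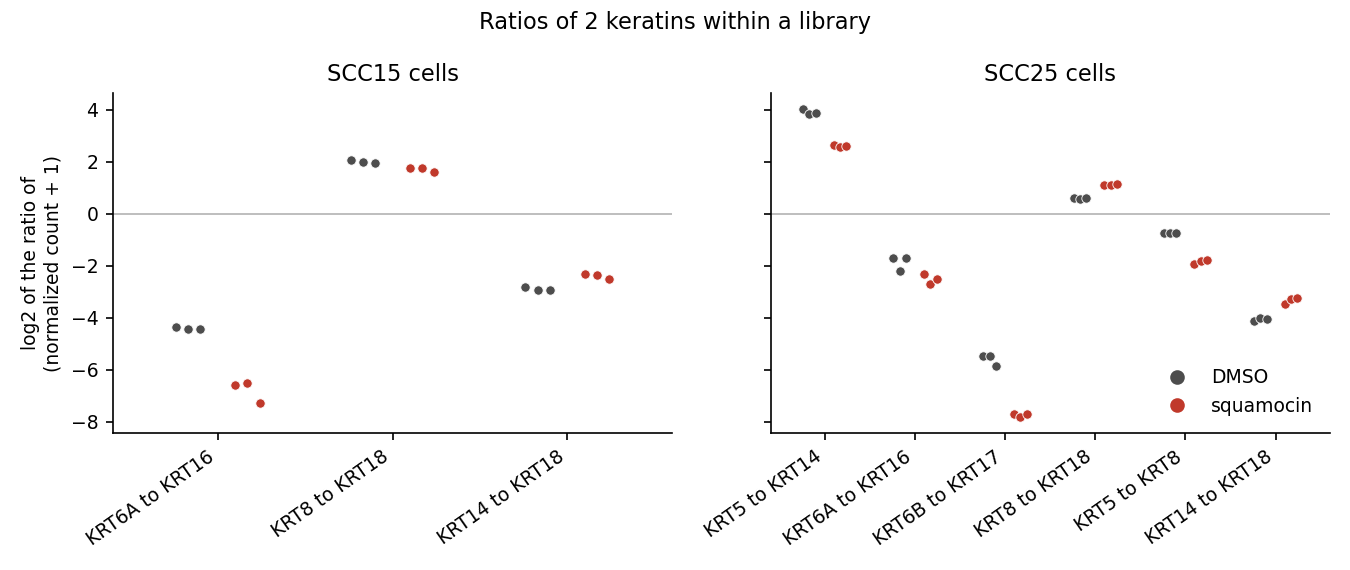
Log2 of the ratio of 2 keratins within each library, with 1 point per library, for DMSO (grey) and squamocin (red). KRT8 to KRT18 is lower with squamocin in SCC15 (3.24 against 3.97 on the linear scale) and higher in SCC25 (2.18 against 1.51). No ratio has overlapping groups, and neither do 70.6% of all single genes tested in SCC15 and 79.0% in SCC25.

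Summed over the 10 genes, keratins took a larger share of the reads after squamocin, and in SCC15 nearly all of the gain was KRT17. KRT13, not analysed in SCC15, was entered as 0 there. In SCC15 the share of all reads on genes was 0.930% ± 0.0174 with DMSO and 1.38% ± 0.277 with squamocin (1.18% in the lowest library and 1.70% in the third). In SCC25 it was 0.155% ± 0.00249 with DMSO and 0.238% ± 0.0136 with squamocin. The groups did not overlap in either cell line. Without KRT17 the share in SCC15 was 0.206% ± 0.00224 with DMSO and 0.213% ± 0.0399 after squamocin, with groups that overlapped, and in it the simple pair went from 0.181% ± 0.00236 to 0.146% ± 0.0288. In SCC25 the share without KRT17 was 0.122% ± 0.00173 and 0.151% ± 0.00906, with no overlap.

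The make-up per length shifted towards the activation keratins. Of the summed RPKM of the 10 genes in SCC25, KRT6A, KRT6B, KRT16 and KRT17 made up 25.7% ± 0.542 with DMSO and 42.2% ± 0.186 with squamocin, nearly all of it KRT17. The basal pair went from 16.4% ± 0.203 to 8.45% ± 0.462 and the simple pair from 57.7% ± 0.348 to 49.3% ± 0.538, although both simple keratins rose in level. In SCC15 the activation keratins went from 81.6% ± 0.559 to 89.8% ± 0.0608 and the simple pair from 17.9% ± 0.543 to 9.71% ± 0.0512. KRT17 became the highest of the keratins in SCC25, at 573 ± 29.9 RPKM with squamocin against 454 ± 25.8 for KRT8, and moved from rank 257 to rank 125 of 16474 protein-coding genes. In SCC15, KRT17 went from rank 1 to rank 4 of 16018 and KRT8 from rank 48 to rank 116. These shares are descriptions with no test.

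**Figure D4:**
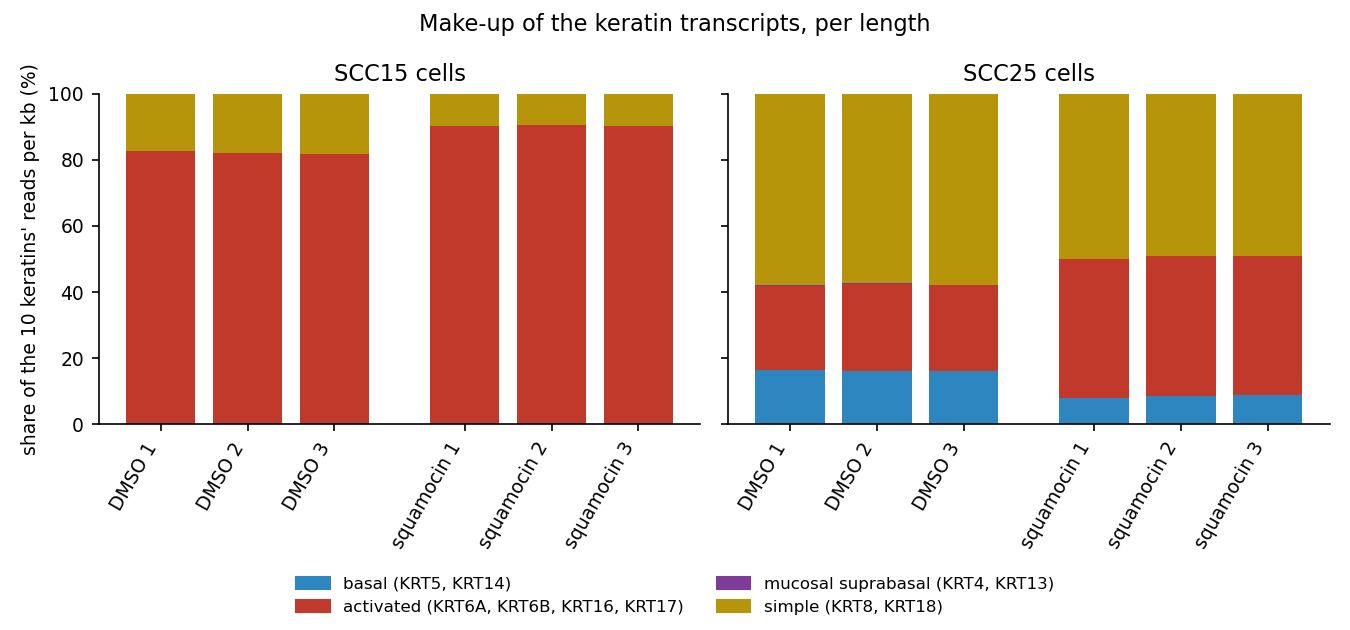
Share of each keratin class in the summed reads per kb of the 10 genes, with 1 bar per library. The activation keratins fill 81.6% of the bar in SCC15 with DMSO and 89.8% with squamocin, and 25.7% and 42.2% in SCC25. The mucosal pair is too small to see, and KRT13 was entered as 0 in SCC15, where it was not analysed.

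Pseudogenes of KRT16 moved with their parent in SCC15 and not in SCC25. The 6 KRT16 pseudogenes analysed in SCC15 summed to 345 ± 7.54 normalized counts in the DMSO libraries and 2068 ± 197 after squamocin, the latter being 15.5% of KRT16. In SCC25 they summed to 101 ± 2.61 and 55.8 ± 8.02, or 28.0% and 4.70% of KRT16. The pseudogenes of KRT8, KRT17 and KRT18 summed to at most 1.20% of their parents. Reads of KRT16 and its pseudogenes may be split between them, and the direction of KRT16 was the same with them added in both cell lines.

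Other keratins also changed, and KRT15 and KRT19 did so in opposite directions in the cell lines. Of 19 other epithelial keratins, 6 were tested in each cell line: 4 were higher and 1 lower in SCC15, 1 higher and 5 lower in SCC25. Of all genes tested, 30.9% were called higher and 30.0% lower in SCC15, and 38.3% and 38.5% in SCC25. KRT15, a type I keratin of basal and stem-like keratinocytes, had 10773, 10639 and 10534 normalized counts in SCC25 with DMSO and 342, 327 and 396 with squamocin. It fell by 4.91 ± 0.064 on the log2 scale there (adjusted p = 1.51e-14). In SCC15 KRT15 was low and rose, from 17.9, 16.6 and 27.1 to 93.9, 74.1 and 107 (2.12 ± 0.25, adjusted p = 3.83e-04). Without the third squamocin library this rise was 2.00 ± 0.26.

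KRT10, a keratin of the differentiating layers of skin, rose in both cell lines. It had 580, 512 and 427 normalized counts in SCC15 with DMSO and 1760, 1644 and 3032 with squamocin (2.04 ± 0.24, adjusted p = 3.47e-04). Without the third squamocin library this rise was 1.76 ± 0.088. In SCC25 the rise was 2.71 ± 0.084 (adjusted p = 2.47e-11), from 312 ± 40.3 to 2037 ± 33.3. KRT80 fell in both, by 0.85 ± 0.10 in SCC15 (adjusted p = 3.80e-04) and by 1.89 ± 0.057 in SCC25 (adjusted p = 2.23e-11), where it had 3161 ± 79.1 with DMSO and 856 ± 64.6 with squamocin. In SCC15 without the third squamocin library, the log2 fold change of KRT80 was -0.84 ± 0.082.

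KRT7, a type II keratin of glandular and other simple epithelium, was among the most abundant keratins of SCC15. Its level there with DMSO was 1080 ± 56.9 RPKM, between KRT17 and KRT8. It had 28852, 26228 and 26522 normalized counts with DMSO and 35154, 36465 and 51943 with squamocin, a log2 fold change of 0.58 ± 0.17 (adjusted p = 0.0216), which was not past the threshold at equal library totals (0.079) or without any 1 of the DMSO libraries. In SCC25, KRT7 was low (380 ± 37.7 normalized counts with DMSO and 303 ± 62.2 with squamocin), its groups overlapped, and its log2 fold change was -0.34 ± 0.13 (adjusted p = 0.0301), which was not past the threshold without squamocin library 1 (-0.21) or 2 or DMSO library 2 or 3.

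KRT19 and KRT23, both type I keratins, were close to 0 in SCC25 after squamocin, and were named after their values had been seen. KRT19 went from 152 reads in the DMSO libraries to 2 with squamocin, a pooled level 57.8 times higher with DMSO (exact 95% counting interval 15.7 to 482). KRT23 went from 205 reads to 6. In SCC15 KRT19 rose by 1.39 ± 0.24 (adjusted p = 0.00200), and KRT23 was not analysed there. Among 25 hair and root sheath keratins, 3 were tested in SCC15 (1 higher, 1 lower) and 4 in SCC25 (1 higher, 3 lower). The shares of all genes called higher and lower were 30.9% and 30.0% in SCC15, and 38.3% and 38.5% in SCC25. KRT81 rose in SCC15 (0.92 ± 0.30, adjusted p = 0.0297) and fell in SCC25 by 1.95 ± 0.27 (adjusted p = 2.43e-05), KRT86 fell in both, by 1.01 and 1.62, KRT34 rose in SCC25 by 1.40, and KRT32 went from 94 reads to 2 there. The KRT81 call in SCC15 was not past the threshold at equal library totals (0.43, adjusted p = 0.165) or without any 1 of the DMSO libraries.

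**Figure D5:**
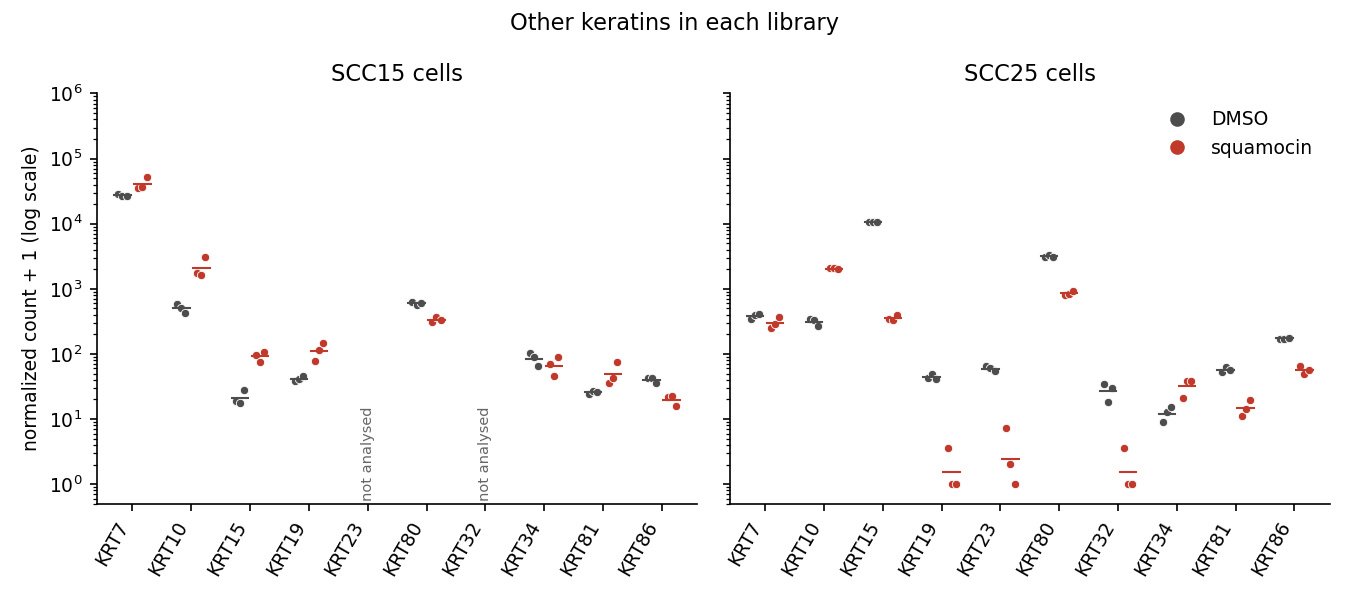
Normalized count plus 1 of 10 other keratins on a log scale, with 1 point per library and a bar at the mean of the log values. KRT15 drops from at least 10534 to at most 396 in SCC25 and is higher with squamocin in SCC15. KRT23 and KRT32 were not analysed in SCC15.

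Other intermediate filament genes and the proteins that hold filaments in place were more often lower than higher in SCC15 and went both ways in SCC25. Of 16 other intermediate filament genes, 11 were tested in SCC15 (2 higher, 7 lower) and 8 in SCC25 (4 higher, 3 lower). PRPH, which encodes the neuronal filament protein peripherin, rose most in both, from 25.8 ± 7.29 to 188 ± 78.3 normalized counts in SCC15 and from 2.00 ± 0.366 to 69.3 ± 20.4 in SCC25. The largest falls were SYNC in SCC15 (-2.21 ± 0.17) and NES, which encodes nestin, in SCC25 (-2.75 ± 0.23). Of 7 plakins, the linkers that tie keratin filaments to junctions, 0 were higher and 4 lower in SCC15 and 2 were higher and 3 lower in SCC25. These SCC15 counts include the third squamocin library, where PLEC had 23544 normalized counts against 48487 and 47084 in its replicates. MACF1 had 1606 there against 3609 and 3442. EPPK1, which encodes the keratin organiser epiplakin, fell most in both cell lines (-2.95 ± 0.16 and -1.93 ± 0.13).

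Of 16 transcription factors known to act on keratin promoters, more rose than fell in each cell line. In SCC15, 12 were tested, 7 were higher and 2 lower, with a median log2 fold change of 0.69. In SCC25, all 16 were tested, 11 were higher and 4 lower, with a median of 0.73. CEBPB, a bZIP factor of keratinocyte differentiation, rose most in both, from 4586 ± 355 to 19225 ± 5285 normalized counts in SCC15 and from 3855 ± 154 to 30989 ± 760 in SCC25. The largest falls were TFAP2C in SCC15 (-1.11 ± 0.11) and ZNF750, an activator of epidermal differentiation, in SCC25 (-1.61 ± 0.14). TP63, which acts on KRT5 and KRT14, rose in SCC25 from 4512 ± 72.8 to 6781 ± 370 (0.59 ± 0.045, adjusted p = 1.00e-07) and did not pass in SCC15, where it had 17.5 ± 5.04 and 10.5 ± 4.43.

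Of 10 genes for keratin binding and turnover, 6 were higher and 3 lower in SCC15, and 7 were higher and 3 lower in SCC25, with all 10 tested in each. SQSTM1, which encodes the p62 receptor of autophagy found in keratin aggregates, rose most in SCC15 (2.46 ± 0.089). HSPB1, a small heat shock protein that binds keratin, rose most in SCC25 (1.89 ± 0.047). CASP6, the caspase that cleaves KRT18 in apoptosis, fell most in both (-1.17 ± 0.15 and -0.82 ± 0.12). The background for all of these lists is the share of genes called higher and lower in each cell line, 30.9% and 30.0% for SCC15 and 38.3% and 38.5% for SCC25.

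The genes whose pattern was nearest to a keratin were found over the 12 libraries after each cell line's mean was subtracted. For KRT6A these were BMP2 and ZC3H6, each with a Pearson correlation of 0.97, and for KRT8 they were CCNB1 and SDHAF3, each with 0.98. Of the 12020 protein-coding genes compared, 233 lay above 0.9 with KRT6A and 468 with KRT8. The libraries share treatment and size factors, and the correlations are descriptions.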

How the data were processed

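The reads were aligned to GRCh38 with HISAT2 2.0.5 and counted per gene with featureCounts 1.5.0-p3, per the submitters' processing notes. Each deposited signal value is a gene's reads in a library over that library's size factor, which the authors set within a cell line. The columns of the SCC25 table are named FPKM but hold such values. Times the recovered factor, 100% of values came out whole (tolerance 0.01). The authors' own fold changes and p-values (DESeq2 1.16.1) were not used.

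Log2(normalized count + 1) was tested with limma 3.58.1 under R 4.3.3 (two-sided, moderated with a trend) on genes with a mean of at least 10, with Benjamini-Hochberg adjustment over all genes of a fit and a threshold of 0.05. The difference between cell lines was a contrast of 4 group means. Fold changes on this scale understate changes of low genes. Similarity of transcripts used GENCODE release 44.

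The members and lists were chosen with earlier results of these data known. All 10 members were named, from each list the largest rise and fall per cell line, and other keratins with a group mean of at least 1000 normalized counts. Genes outside this rule that are named with values (TP63, EPCAM, DSG3, PERP, CDH1, DSP, KRT6C, KRT19 and KRT23) were chosen after their values were seen. Replicate numbers did not pair the samples. edgeR 4.0.16, DESeq2 1.42.0, other scalings, filters, pseudocounts, a replicate block and leaving out each library were the alternatives. The scripts were tested on simulated data.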

Additional observations from a re-analysis of the deposited data

Results flagged for a closer look

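The response to squamocin differed between SCC15 and SCC25 for 8 keratins, by the limma contrast over all 12 libraries. Of these, 2 are among the 10 described: KRT6A, with a response in SCC15 minus that in SCC25 of -1.30 on the log2 scale (adjusted p = 1.30e-04), and KRT8, with -0.76 (adjusted p = 0.00815).

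The others were KRT15 at 7.03 (adjusted p = 1.07e-09), KRT81 at 2.86 (adjusted p = 8.02e-05), KRT80 at 1.03 (adjusted p = 1.23e-05), KRT7 at 0.92 (adjusted p = 0.00383) and KRT34 at -1.75 (adjusted p = 0.00592). KRT19 was at 6.26 (adjusted p = 3.43e-06), a value that depends on the added count of 1, since KRT19 had only 2 reads with squamocin in SCC25. KRT15, KRT19, KRT81 and KRT7 were called in opposite directions in the cell lines, with the limits given above for KRT81 and KRT7. KRT6A (-0.21 in SCC15 and 1.09 in SCC25) and KRT34 (-0.35 and 1.40) also had opposite signs. In the main test these passed only in SCC25. KRT80 fell in both. KRT14, KRT16, KRT17 and KRT18, and outside the 10 KRT10 (-0.68, adjusted p = 0.0529) and KRT86 (0.61, adjusted p = 0.0686), did not pass. Of all genes in that contrast, 52.2% were called different, and the share of keratins called lies near that.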

How the results depend on the processing

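Each check combined a result with a setting, so a setting is counted once for every result it was applied to. The counts of keratins called moved in 9 such combinations, while counts and ratios held in 184. The 9 ratios kept their direction in every setting run. In SCC15, the count of lower keratins went from 0 to 1 without the third squamocin library and to 2 at equal library totals. In SCC25, it went from 3 to 1 when a log2 fold change beyond 1 was required. For the difference between the cell lines, the count of higher keratins went from 0 to 1 with DESeq2, and that of lower keratins from 2 to 4 at equal library totals. Leaving out 1 library at a time gave 3 to 4 higher and 0 to 1 lower in SCC15, 6 higher and 3 lower in SCC25, and 0 to 1 higher and 2 to 5 lower for the difference.

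In 5 combinations of a single gene's result and a setting, the value changed sign. KRT8 in SCC15 was -0.12 without the third squamocin library and -0.39 at equal library totals, KRT18 in SCC15 was -0.098 at equal library totals, and the difference for KRT18 was -0.22 and -0.23 under the same changes. Otherwise, single genes stayed on their side of the threshold in 724 such combinations, passed it in 20 and lost it in 12. With 1 library left out at a time, KRT8 in SCC15 ran from -0.12 to 0.25 and the difference for KRT18 from -0.22 to 0.23. The cause was not tested beyond the settings' own construction.

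The replicate numbers did not pair the samples (same-numbered libraries had correlations of deviations from -0.051 to 0.0078). With the replicate number as a block, the counts were 3 higher and 0 lower in SCC15, 6 and 3 in SCC25, and 0 and 2 for the difference, and the block changed no call of a keratin. On the recovered reads, edgeR with the authors' factors called 5074 genes higher and 4757 lower in SCC15, and 6413 and 6384 in SCC25.

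Depth limits KRT5, KRT6B and KRT4 in SCC15 and KRT4 in SCC25, with at most 34 reads per group, and the ratio of KRT13, which rests on 3 reads.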
